A study of Mus musculus with 3 samples.

Results

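The transcripts described here encode proteins that hepatocytes release into the blood: Alb, Mup1, Apoa1, Apoa2, Apoc3, Ttr, Ahsg, Fgb, Fgg and Trf, 10 genes in all. They were found on the arrays by gene name, or by the current symbol of the probe's accession (Alb for the older Alb1), and 13 of 41174 probes belonged to them. Aortic RNA of mice was hybridised to 3 Agilent arrays, each read in a red and a green dye. The red dye Cy5 marked RNA of 1 individual aorta labelled Plk1(+/-), from a mouse heterozygous for an altered allele of the mitotic kinase gene Plk1. RNA of a pool of 3 wild-type (WT) aortas, the same pool on each array, carried the green dye Cy3. The animals of both groups were 3 to 5 months old and of mixed 129/CD1 strain. A growth protocol given with the samples describes embryonic stem cells, while each sample is labelled as aorta.

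The labels name the 3 samples labelled Plk1(+/-) as biological replicates, here called samples 1, 2 and 3. The pool counts as 1 control sample, and its own spread between animals was not measured. The dyes were never exchanged, so dye and genotype cannot be told apart. All ratios below are log2 of sample over pool after background correction and loess normalization, so a negative ratio is a lower signal in the sample. The 10 genes were chosen with the ratios of these arrays known, so their ratios are a description and carry no test. The number of arrays limits the precision. The Plk1 probe read -0.06, -0.08 and 0.42 in samples 1, 2 and 3, and as the alteration of the allele is not described in the labels, this reading is no check of the labels. All 12 smooth muscle genes looked at were well above background in both dyes on every array. Of all probe spots, 77.0% to 80.8% were so in Cy5 and 66.0% to 69.0% in Cy3.

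The liver makes most of the protein of blood plasma. Albumin carries fatty acids and hormones, apolipoproteins package lipid, fibrinogen forms the clot, and major urinary proteins (MUPs) carry pheromones into mouse urine. In hepatocytes these genes are driven by a small set of liver-enriched transcription factors, among them HNF4, FOXA and C/EBP proteins. Some have a further source: Ttr is strong in the choroid plexus of the brain, Apoa1 and Apoc3 in the intestine, and Trf in several tissues.

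Of the 10 genes, 6 shared a pattern that no average over the samples shows: Alb, Apoa1, Apoa2, Ahsg, Fgb and Fgg were below the pool in samples 1 and 3 and above it in sample 2. Mup1 was below the pool in all 3 samples, least so in sample 2. Trf was below the pool in sample 1 and above it in samples 2 and 3, Apoc3 was above it in all 3 samples, and Ttr was above background in sample 2 alone. Across the 9 genes that passed the filter for dim probes, all but Ttr, the median ratio was -1.60, 1.15 and -1.56 in samples 1, 2 and 3, against medians of 0.04, 0.01 and 0.04 over all 21514 features without a saturated spot. Of these features, 5.32% were below the pool in samples 1 and 3 and above it in sample 2. The 6 genes with this pattern kept it under each of 5 other scalings, including the scanner's own log ratio. These scalings share the same spots and are not separate checks. The deposited log2 ratios, among the 5, repeat the scanner's log ratio for all of the 6 genes but Apoa1.

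**Figure D1:**
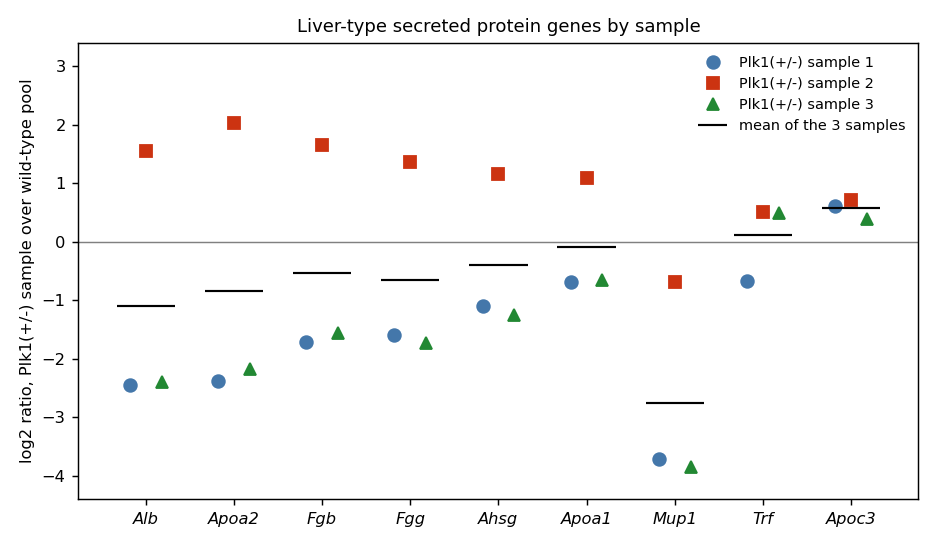
Log2 ratio of each Plk1(+/-) sample over the wild-type pool for the 9 genes that passed the filter on dim probes, with the mean of the 3 samples as a bar. Sample 2 (red squares) lies above 0 and samples 1 and 3 below it for the 6 genes on the left, while Mup1 is below 0 and Apoc3 above 0 in all 3 samples.

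Alb encodes serum albumin. The probe matches chr5:90443687-90443746, plus strand, in mm7, the build of the array design, and is shown first because it separated the samples widely.
Alb probe: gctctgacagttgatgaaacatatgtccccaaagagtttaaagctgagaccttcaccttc
Its raw mean signal in Cy5 was 370.5, 7914 and 387 in samples 1, 2 and 3, against 868, 1081 and 813 in Cy3 for the pool. Sample 2 stood far above both others, which lay close to each other, and the pool kept a similar signal on the 3 arrays. The Cy5 signal differed 21.4-fold between the highest and lowest array and the Cy3 signal 1.33-fold, with a coefficient of variation of 15.4% for the pool. After normalization the ratios were -2.45, 1.56 and -2.40, a mean of -1.10 ± 2.30 (SD, n = 3). The mean lies between the samples and stands for none of them: samples 1 and 2 differed 16.1-fold.

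The pool was the same RNA on each array. In Cy3, for the 9 genes other than Ttr, the highest array exceeded the lowest by 1.07-fold (Apoa1) to 1.45-fold (Trf), with Ahsg slightly above that range. For the 6 genes the sample channel varied far more than the pool channel, although the channels differ in dye and the pool has no spread between animals. Whether a sample held fewer cells that make these transcripts or less RNA per cell cannot be told apart in bulk RNA.

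**Figure D2:**
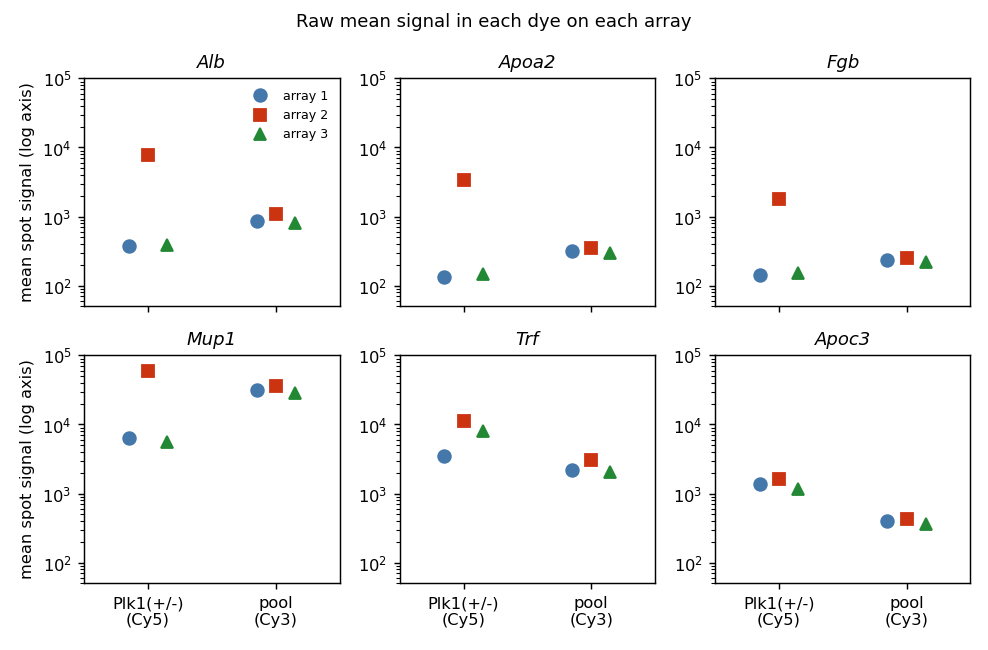
Raw mean spot signal, on a log axis, of the Plk1(+/-) samples in Cy5 (left) and of the pool in Cy3 (right) on arrays 1, 2 and 3 for 6 genes. For Alb, Apoa2, Fgb and Mup1 the Cy5 signal of array 2 stands apart, whereas the pool signals lie close together. Levels are not comparable between genes or between dyes.

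Apoa2, which encodes the second main protein of high density lipoprotein, had the widest spread of the 9 genes with a ratio, and its probe lies at 171195820 to 171195879 of chromosome 1 in mm7.
Apoa2 probe: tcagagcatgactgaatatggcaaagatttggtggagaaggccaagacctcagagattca
In Cy5 it read 131, 3416 and 145 in samples 1, 2 and 3, and the pool read 315, 351 and 293 in Cy3. The ratios were -2.38, 2.03 and -2.18, a mean of -0.84 ± 2.49 (SD, n = 3), and samples 2 and 1 differed 21.2-fold. Signals in samples 1 and 3 were near the local Cy5 background of 73.5 and 70.0, and the offset added in background correction then draws ratios towards 0. The scanner's own log ratio, which has no such offset, read -3.92, 2.21 and -3.42.

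Apoa1 encodes the main structural protein of high density lipoprotein. Its probe, on chromosome 9 at 46187961 to 46188020 of mm7, was printed 10 times on each array and so gives a technical error of its own.
Apoa1 probe: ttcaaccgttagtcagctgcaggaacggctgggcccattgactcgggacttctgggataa
After outlier spots were left out, the ratios averaged -0.70 ± 0.13 over 8 spots in sample 1, 1.09 ± 0.15 over 9 spots in sample 2 and -0.66 ± 0.14 over 9 spots in sample 3 (SD over spots). The spots ran from -0.84 to -0.50, from 0.81 to 1.26 and from -0.88 to -0.48. No spot of sample 2 overlapped one of sample 1 or 3, and samples 1 and 3 overlapped widely. The mean over samples was -0.09 ± 1.02 (SD, n = 3). In Cy5 just 4 of the 10 spots were well above background in samples 1 and 3, against all 10 in sample 2, so the ratios of samples 1 and 3 are limited by background. The scanner's log ratio of the probe was -2.24, 1.69 and -2.20.

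**Figure D3:**
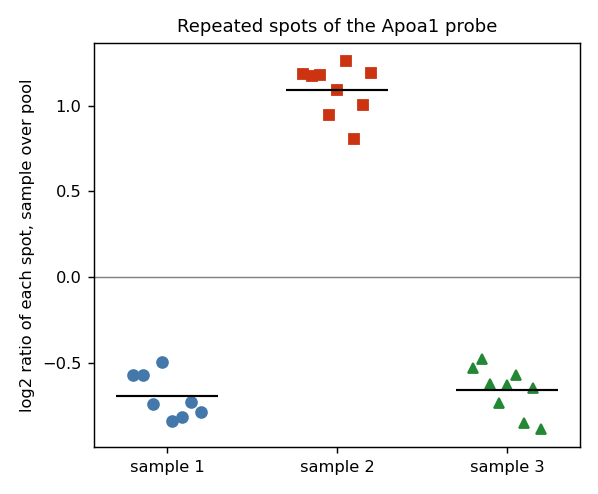
Log2 ratio of each repeated spot of the Apoa1 probe in the 3 Plk1(+/-) samples, sample over pool, with the mean of the spots as a bar. The spots of sample 2 lie between 0.81 and 1.26 and those of samples 1 and 3 between -0.88 and -0.48.

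Over the 245 probes printed 10 times, the median SD between spots was 0.07, 0.06 and 0.07 on the 3 arrays. Spot-to-spot error was thus small beside the distance between sample 2 and the other samples for the 6 genes, while error from labelling and dissection was not measured, since each aorta was hybridised once.

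Apoc3, the neighbour of Apoa1, behaved otherwise. It encodes an inhibitor of triglyceride clearance, and its 2 probes lie on the minus strand of chromosome 9 at 46191393 to 46191452 and 46191403 to 46191462 of mm7, with 3372 bases between the first and the Apoa1 probe. The capitals mark the 50 bases the pair share, so the probes are not independent.
Apoc3 probe 1: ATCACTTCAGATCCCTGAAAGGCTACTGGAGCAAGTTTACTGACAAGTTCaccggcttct
Apoc3 probe 2: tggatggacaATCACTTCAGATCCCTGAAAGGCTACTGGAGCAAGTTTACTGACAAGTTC
The first probe read 1382, 1622 and 1174 in Cy5, and the pool read 394, 424 and 361 in Cy3. Its ratios were 0.61, 0.72 and 0.39, a mean of 0.57 ± 0.17 (SD, n = 3), and the second probe read 0.49, 0.72 and 0.35. All 3 samples lay above the pool and differed by at most 1.25-fold on the first probe. Median centring in place of loess gave a mean of 0.88. Further genes of the same cluster, chosen for mention with their ratios known, were mixed. Apoa5 read -0.43, 0.72 and -0.36, with the signs of Apoa1 in each sample, while Apoa4 read 0.03, 0.11 and 0.15.

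The fibrinogen chains Fgb and Fgg join with the chain from Fga into the protein that thrombin turns into a clot. In mm7 the Fgb probe matches chr3:83147097-83147156, minus strand, and the Fgg probe chr3:83119588-83119647, plus strand, with 27449 bases between them. Fgb read 142, 1777 and 151 in Cy5 and 231, 252 and 217 in Cy3. Its ratios were -1.71, 1.65 and -1.56, with a mean of -0.54 and a span of 10.3-fold between samples 2 and 1. Sample 2 was high and samples 1 and 3 were alike, as for albumin. For Fgg the Cy5 signals were 109.7, 1315 and 114, against pool signals of 189.8, 222 and 191. The ratios of Fgg were -1.60, 1.37 and -1.73, with a mean of -0.65 ± 1.75 (SD, n = 3). Both genes were close to background in samples 1 and 3, and the scanner's log ratio there was -3.01 and -2.77 for Fgb and -3.76 and -3.67 for Fgg. Fga, which lies between them in the gene order of assembly GRCm38.p6, read -0.70, -0.02 and -0.40: sample 2 was again the highest, without passing above the pool. The Fga probe was dimmer, with a mean log2 intensity over both dyes of 6.60, against 8.04 for Fgb and 7.74 for Fgg. The offset draws ratios of such dim probes towards 0, so the sizes are not compared.

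Ahsg encodes fetuin-A, a plasma protein that keeps calcium phosphate in solution. Its Cy5 signals were 830.0, 5882 and 755 in samples 1, 2 and 3, and the pool gave 747, 1068 and 711 in Cy3. The probe, on chromosome 16 at 22560686 to 22560745 of mm7, gave ratios of -1.10, 1.15 and -1.26, with a mean of -0.41 ± 1.35 (SD, n = 3). Its signals lay well clear of background in both dyes, and samples 1 and 3 were again alike. Its mean moved to -0.06 with median centring, while the per-sample ratios of -0.79, 1.52 and -0.91 kept their signs. Fetub and Hrg, cystatin-family neighbours of Ahsg in GRCm38.p6 and also chosen for mention with their ratios known, moved less. Fetub read -0.25, 0.21 and -0.29, and Hrg 0.03, 0.27 and 0.12.

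Promoter sequences were available for the same 6 genes, from RefSeq on GRCm38.p6, as windows from 250 bases before the start to 50 after it. None was available for Mup1, Apoc3 and Trf, so genes that moved otherwise are not compared. Of the windows, 3 with a match are printed. Capitals mark matches to CAAAGTC (a core of HNF4 sites), TGTTTAC (a FOXA site) and TTGCNNAA (a C/EBP site), on either strand.
Alb promoter, chr5:90460620-90460919, plus strand: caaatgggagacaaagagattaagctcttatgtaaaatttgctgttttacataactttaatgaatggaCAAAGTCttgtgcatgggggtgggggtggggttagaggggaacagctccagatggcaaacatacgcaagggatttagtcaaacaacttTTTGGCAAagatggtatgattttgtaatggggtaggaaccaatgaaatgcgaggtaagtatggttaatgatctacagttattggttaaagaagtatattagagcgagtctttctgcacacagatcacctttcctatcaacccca
Fgb promoter, chr3:83049814-83050113, minus strand: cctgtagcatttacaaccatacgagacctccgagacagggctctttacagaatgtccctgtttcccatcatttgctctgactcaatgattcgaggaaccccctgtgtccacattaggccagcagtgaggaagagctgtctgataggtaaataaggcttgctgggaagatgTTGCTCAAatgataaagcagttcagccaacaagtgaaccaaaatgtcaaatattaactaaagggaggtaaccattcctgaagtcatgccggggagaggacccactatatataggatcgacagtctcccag
Ahsg promoter, chr16:22891765-22892064, plus strand: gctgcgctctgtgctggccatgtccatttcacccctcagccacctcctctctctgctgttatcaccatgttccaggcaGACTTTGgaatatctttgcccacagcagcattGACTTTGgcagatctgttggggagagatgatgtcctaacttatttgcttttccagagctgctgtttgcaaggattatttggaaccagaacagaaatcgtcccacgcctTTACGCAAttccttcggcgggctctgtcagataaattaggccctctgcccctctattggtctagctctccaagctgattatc
With the start counted as 0, the Alb window held the HNF4 core at -182 to -176 and the C/EBP letters at -94 to -87. The Fgb window held the C/EBP letters at -80 to -73. In the Ahsg window the HNF4 core stood at -172 to -166 and -140 to -134 and the C/EBP letters at -32 to -25. The 2 windows of Apoa2 held the FOXA letters in the one and the C/EBP letters in the other, and the windows of Fgg and Apoa1 held none of the 3 motifs. In all, 5 of 7 windows held at least 1 motif, the 2 of Apoa2 among them. Of 32851 promoter windows of the same length, 4.44% held the HNF4 core, 3.65% the FOXA letters, 10.8% the C/EBP letters and 17.5% any of them. A match says only that these letters are present, and whether they bear on the ratios was not tested.

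Mup1 had the lowest mean ratio of the 9 genes. MUPs are small lipocalins made mainly in liver, more in males, and their genes stand in a tandem array of near-identical copies, so a probe named Mup1 may take up transcripts of other copies and the gene-level reading is uncertain. Of the 3 probes, all on the minus strand of chromosome 4 in mm7, the first lies at 60420781 to 60421004, the second at 60502405 to 60502464 and the third at 60951764 to 60953063. Probe 1 spans 224 bases of genome and probe 3 spans 1300, for 60 bases of probe. Capitals mark the 20 bases that probes 2 and 3 share.
Mup1 probe 1: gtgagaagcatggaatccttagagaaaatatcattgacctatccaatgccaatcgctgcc
Mup1 probe 2: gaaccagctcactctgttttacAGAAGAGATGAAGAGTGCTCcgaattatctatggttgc
Mup1 probe 3: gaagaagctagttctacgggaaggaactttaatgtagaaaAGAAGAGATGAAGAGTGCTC
On probe 1 the Cy5 signals were 6354, 59646 and 5582 in samples 1, 2 and 3, against 31338, 35784 and 28532 for the pool in Cy3. The ratios were -3.72, -0.69 and -3.85, a mean of -2.75 ± 1.79 (SD, n = 3). Sample 2 was the nearest to the pool, and samples 1 and 3 were alike. Probe 2 read -4.56, -1.08 and -4.50 and probe 3 read -3.15, -0.60 and -3.18, so sample 2 was the highest on all 3 probes. No spot was marked as saturated.

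A further 7 probes carried a MUP name or description. All 7 were below the pool in samples 1 and 3, and all 7 were highest in sample 2, where 2 of them stood above the pool. Their ratios ran from -4.41 to -0.26 in sample 1, from -1.55 to 1.03 in sample 2 and down to -4.46 in sample 3. Mup4 read -2.53, -0.40 and -2.81, and Mup5 read -3.15, -0.62 and -3.22. Of the Mup3 probes, the first read -1.07 in sample 2 and the second 0.84, so they disagreed there. In sample 2, then, albumin was above the pool while Mup1 stayed below it. With median centring Alb read 1.94 and Mup1 -0.20 in sample 2, so the distance of Mup1 from the pool there depends on the scaling.

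Trf encodes transferrin, the iron carrier of plasma. Its probe covers 616 bases of genome, from 102929342 to 102929957 on the minus strand of chromosome 9 in mm7. It read 3553, 11099 and 8094 in Cy5 and 2210.0, 3026 and 2084 in Cy3. The ratios were -0.67, 0.51 and 0.49, a mean of 0.11 ± 0.67 (SD, n = 3). Samples 2 and 3 stood together above the pool and sample 1 below it, unlike albumin, for which sample 3 lay with sample 1. Under median centring the mean of Trf was 0.55, and sample 3 at 0.97 then lay just above sample 2 at 0.94.

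Ttr encodes transthyretin, a carrier of thyroid hormone and retinol. Its 1 probe was not well above background in the pool on any array, nor in samples 1 and 3, and was so in sample 2. The Cy5 signals were 85.8, 147 and 82.3, against 88.7, 66.5 and 82.3 in Cy3, and no ratio is drawn from them.

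The genes ranked widely in how much the 3 samples differed. The range over samples was 4.40 for Apoa2, 4.01 for Alb, 3.36 for Fgb and 3.16 for Mup1, each a log2 difference, and for Fgg the extremes differed 8.58-fold. These 5 of the 9 genes had a range of at least 3, as did 0.311% of all 21514 unsaturated features. Ahsg had a range of 2.41, Apoa1 of 1.79, Trf of 1.18 and Apoc3 of 0.33, against a median range of 0.28 over all unsaturated features. The offset narrows the ranges of genes near background, and the scanner's log ratio gave another order. By it the ranges were 6.13 for Apoa2, 5.39 for Fgg, 4.88 for Fgb and 4.52 for Alb. They were 3.93 for Apoa1, 3.14 for Mup1 and 2.65 for Ahsg. The share of all features with a range of at least 3 was not computed on that scale. In order of the loess-normalized range, Apoa2 stood at place 7 and Alb at place 13 of 21514, and Apoc3 at place 8945. The genes were chosen with this spread known, so these places describe them and support nothing.

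**Figure D4:**
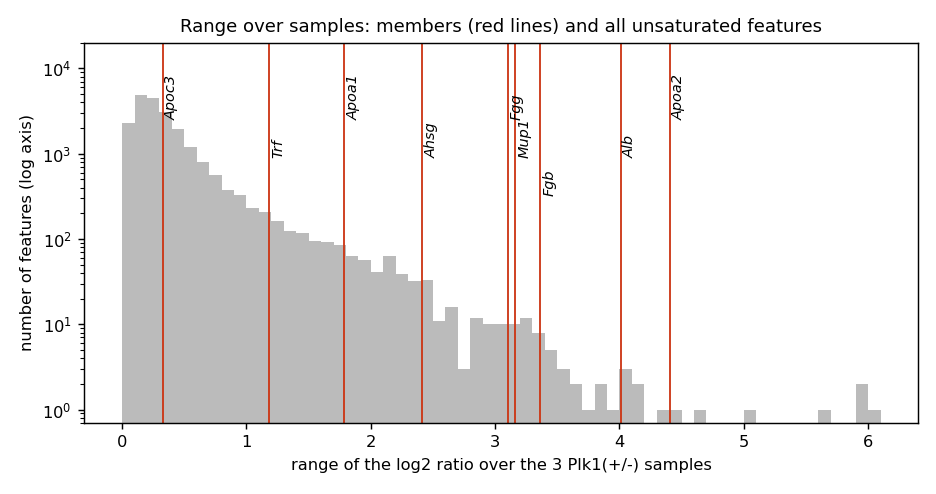
Number of unsaturated features, on a log axis, by the range of their log2 ratio over the 3 Plk1(+/-) samples, with red lines at the 9 genes. Apoa2 at 4.40 and Alb at 4.01 lie in the far tail, Apoc3 at 0.33 close to the median of 0.28.

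By limma (lmFit and eBayes over 22043 features with Benjamini-Hochberg adjustment), 0.925% of features passed an adjusted p of 0.05, and 0 of the 9 genes did. In the same fit 0.149% of the features without a saturated spot passed, and the 9 genes are all of this kind. At an unadjusted p of 0.05 stood 2 of the 9, Mup1 lower and Apoc3 higher, against 17.8% of unsaturated features. The genes were chosen on this same contrast, so nothing is read from these counts.

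Other genes made by hepatocytes were then looked at, from a list of 54, of which 51 passed the filter and 47 had no saturated spot. Their medians were -0.16, 0.39 and -0.14 in samples 1, 2 and 3, with the signs of the 6 genes. By the scanner's log ratio the medians were -0.30, 0.53 and -0.41. The offset draws ratios of dim probes towards 0, and many of these probes were dim, so the sizes are not compared. Of the 47, 23 were below the pool in samples 1 and 3 and above it in sample 2, as were 5.32% of all unsaturated features. Sample 2 was the highest for 35 of the 47, and for 19.5% of all unsaturated features. Ambp, which encodes the precursor of bikunin and alpha-1-microglobulin, read -2.47, 1.69 and -2.42 and came nearest to Alb and Apoa2 in size. The protease inhibitor gene Serpina1b read 0.17, 1.73 and 0.29. Not all followed: the hyaluronan-binding Itih2 read -0.43, -0.56 and -0.40, the clotting factor gene F10 0.35, 0.45 and 0.33, and the acute-phase gene Saa1 -0.35, -0.38 and -0.40. By limma's adjusted p over all features 3 of the 51 passed, against 0.925% of all features. They were Rbp4, C3 and Hp, each on a saturated probe, as were 172 of all 204 calls, so neither fold nor direction is read. Adipose tissue also expresses these 3.

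The list of hepatocyte enzymes and transporters, proteins that stay in the cell, gave medians of -0.08, 0.47 and -0.08 over 31 unsaturated genes of 36. Of the 31, 23 were highest in sample 2, against 19.5% of all unsaturated features. Below the pool in samples 1 and 3 and above it in sample 2 were 14, against 5.32%. By limma 0 passed an adjusted p of 0.05, against 0.149%, and 1 an unadjusted p of 0.05, against 17.8%. Fabp1, the liver fatty acid binding protein, read -3.73, 2.26 and -0.76, so sample 3 was not with sample 1. The urate oxidase gene Uox read -1.24, 1.21 and -1.03, and the urea cycle gene Cps1 -0.84, 0.81 and -0.87. Fbp1 and Adh1, enzymes of gluconeogenesis and alcohol breakdown, were not low in samples 1 and 3, with 0.02, 0.87 and 0.44 and with 0.67, 0.20 and 0.28.

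The liver-enriched transcription factor list had medians close to 0. Those of 12 unsaturated genes were 0.04, 0.05 and 0.10 in samples 1, 2 and 3, and 5 of the 12 (41.7%) were highest in sample 2, against 19.5% of all unsaturated features. The difference from the hepatocyte lists was not tested. By limma 0 passed an adjusted p of 0.05 and 0 an unadjusted one, against 0.149% and 17.8% of all unsaturated features. Hnf4a read 0.29, 0.01 and 0.27, Foxa2 -0.05, 0.44 and -0.13, Onecut1 0.06, 0.14 and 0.05, and the nuclear receptor gene Nr5a2 -0.29, 0.53 and 0.47. Creb3l3, a factor that acts on lipid genes in liver and gut, read 0.20, -1.06 and 1.11, with sample 2 the lowest.

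**Figure D5:**
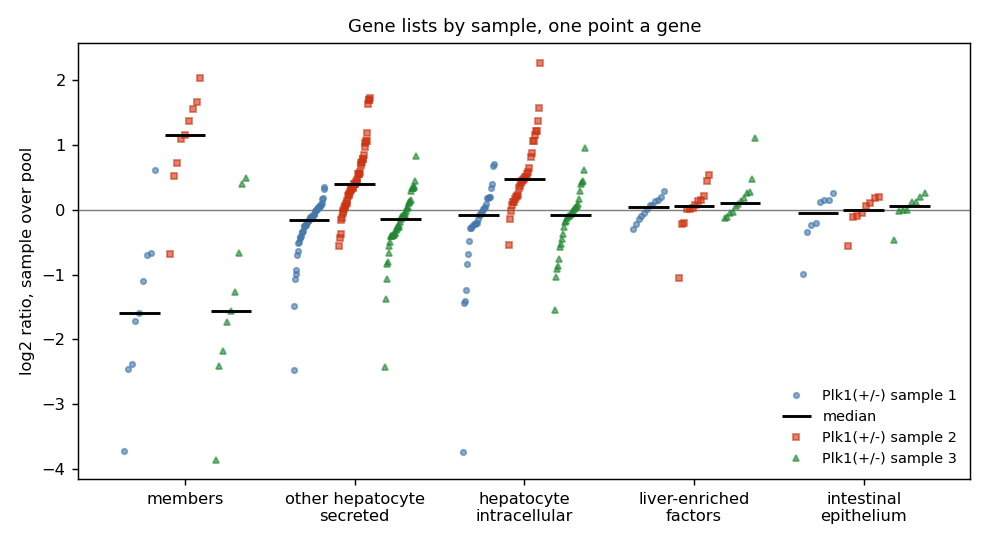
Log2 ratio of sample over pool for the unsaturated genes of 5 lists, 1 point a gene, with the median of each sample as a bar. Sample 2 (red) is the highest of the medians for the secreted and the intracellular hepatocyte genes (0.39 and 0.47) and close to 0 for the transcription factor and intestinal lists.

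Among the features whose 3 ratios lay nearest to the per-sample median of the 9 genes, by Euclidean distance over the 3 arrays and with a current gene symbol, were Uox (0.63), the prothrombin gene F2 (0.69), the carboxylesterase gene Ces3b (0.73), the atrial myosin light chain gene Myl4 (0.73) and the plasma glycoprotein gene Apoh (0.77). F2 read -1.48, 1.62 and -1.07, Apoh -1.07, 1.68 and -1.38, and Ces3b -1.70, 1.81 and -1.84. Myl4, of heart muscle, read -1.78, 0.48 and -1.79.

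Markers of other cell types also differed between these samples, some in other orders and some in the same one. The lymphocyte list had unsaturated medians of 0.13, 1.12 and 1.45 in samples 1, 2 and 3, and the skeletal muscle list -0.69, -0.94 and -2.84. Smooth muscle genes had medians of -0.36, -1.13 and -1.05, and red cell genes -0.43, -1.09 and -0.81. With median centring the sample 1 medians turned to 0.11 for smooth muscle and 0.07 for red cells, and the red cell medians of samples 2 and 3 were then -0.84 and -0.98. White fat, with 4 of 12 genes unsaturated, had medians of -0.05, 0.20 and -0.43. Just 2 of the 4 genes were below the pool in samples 1 and 3 and above it in sample 2. Of the others, Lep read 0.14, -0.13 and -1.35, and Lipe 0.06, 0.16 and 0.29. The white fat medians became 0.45, 0.66 and 0.08 with median centring, where the median of sample 2 was still the highest. Of brown fat, 5 of 9 genes were unsaturated, with medians of -0.25, 0.39 and 0.15, or 0.18, 0.84 and 0.63 with median centring. Sample 2 was the highest for 2 of these 5 genes. Heart muscle genes, picked out for their wide range and on no list, had the order of Alb too: Myl7 read -4.06, 0.54 and -4.10, and Tnnt2 -2.73, 0.15 and -3.22. For intestinal epithelium, a further source of Apoa1 and Apoc3, 8, 7 and 8 of 11 genes were well above background in Cy5, against 6 of 11 in the pool on each array. Hepatocyte enzyme genes were well above background for 31, 35 and 30 of 36 in Cy5, and for 30, 29 and 30 of 36 in the pool. Over all probe spots the shares were 80.3%, 77.0% and 80.8% in Cy5, and 66.0%, 69.0% and 68.0% in Cy3. Cy5 was thus above background more often on every array, and nothing is read from these counts. The part of any of these cells in the ratios of Alb and its companions was not tested.

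The median over the genes rested largely on sample 2. Without it the median of the 9 genes was -1.63, against -0.54 with all 3 samples, -0.06 without sample 1 and -0.08 without sample 3. The SD between the 3 samples exceeded the size of the mean for Alb, Apoa1, Apoa2, Ahsg, Fgb, Fgg and Trf, and fell short of it for Mup1 and Apoc3. For Trf sample 1 weighed most, with a mean of 0.50 without it. Leaving out 1 sample kept the Apoc3 mean between 0.50 and 0.66.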

How the data were processed

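The authors scanned each array and read spot intensity values, per the file headers, by Feature Extraction (Agilent, version 9.5.3.1), on a design annotated on mm7. The mean signals used here are raw. The deposited scanner log ratio is a log10 ratio of dye-normalized Cy5 over Cy3, per the file headers, and was turned to log2. A deposited table of the whole series also holds log2 ratios, with the centring step not stated. For probes of the 10 genes printed once and given a value there, these equal the scanner's log ratio in log2, to rounding.

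Mean signals were corrected with normexp (offset 50) and normalized by loess within arrays with control spots at weight 0 (limma 3.58.1, R 4.3.3). Control and outlier spots were left out, and spots of a probe averaged. A probe was kept when 2 or more of the 3 arrays had it well above background in at least one dye, and the brightest stood for its gene (22043 features). On arrays 1, 2 and 3, 80.3%, 77.0% and 80.8% of probe spots were well above background in Cy5, and 66.0%, 69.0% and 68.0% in Cy3. Names were updated through a RefSeq listing of GRCm38.p6 (22951 probes by accession, 6659 by current symbol, 3109 by synonym, 8455 unchanged).

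The limma fit, tested on simulated data, set each ratio against 0. From the lists, genes called and up to 6 with the largest mean were named, with the 6 features nearest to the median of the 9 genes. Genes and lists were chosen with earlier results of these data known. Si was dropped from the intestinal list, since it names another gene on this array. Some genes that these rules name are not reported here.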

Additional observations from a re-analysis of the deposited data

How the results depend on the processing

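Over all features limma made 204 calls, 8 higher and 196 lower. Of the 204, 172 were on a saturated probe, for which the direction is not read. Median centring gave 9761 calls, 7152 higher and 2609 lower (73.3% higher against 3.92%), with the median of all features at 0.23 against 0.04. The scanner's log ratio gave 125 calls. Leaving out saturated features gave 0, with 3832 at an unadjusted p of 0.05. Leaving out 1 sample gave between 0 and 175 calls, 0 without sample 2 (1983 at an unadjusted p of 0.05) and 0 without sample 3 (3095). For the other settings the counts lay within 1.5 times of 204. The median of the 9 genes ran from -1.63 to -0.06 when 1 sample was left out, and that of the other secreted hepatocyte genes from -0.21 to 0.15. Among 116 values of single genes under the alternatives, 115 stayed within 1 SD of the reported mean, an SD that is wide for most. The other was Apoc3 with median centring (0.88). Many of these values could not have left 1 SD. Settings that change only the filter on features leave a gene's mean as it was, and leaving out 1 sample cannot move it that far. The count is therefore no measure of how stable the means are. The scanner's log ratio moved the means by more than 1.5 times for Apoa1 (-0.91), Apoa2 (-1.71), Fgb (-1.31) and Fgg (-1.93), genes near background in samples 1 and 3. Signal over background limits Ttr and Apoa1 most. No paired analysis was possible because each sample was compared with 1 shared pool, which carries no replicate number.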
